A study of Mus musculus with 12 samples.

Results

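Expression of 10 glutathione genes was followed in luminal and basal epithelial cells of the mouse prostate, before and after castration. The 10 genes were the glutathione transferases Gstm1, Gstm2, Gsta3, Gsta4, Gsto1 and Mgst1, the glutathione peroxidases Gpx1, Gpx2 and Gpx3, and Gclc, the catalytic subunit of glutamate-cysteine ligase. They were chosen by symbol from the 18193 genes that had a probe set of their own on the arrays. All 10 were measured, by 17 probe sets in all. Where a gene had several, the brightest, by its mean log2(signal + 16), stood for it. Each of these 10 exceeded the 40th percentile of signals in each of the 12 samples, so no member was lost to the filter on low values.

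Glutathione is the main small thiol of the cell, a tripeptide made in consecutive steps and the ligase that contains Gclc catalyses the rate-limiting step. Glutathione transferases couple it to reactive or foreign molecules, which are then exported, and glutathione peroxidases spend it to reduce hydrogen peroxide and lipid hydroperoxides. Many genes of this system are targets of the transcription factor Nrf2. In the prostate, luminal cells line the gland and secrete under the control of androgen, and basal cells lie beneath them.

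All mice were C57BL/6 males, 8 weeks old at the start, which were surgically castrated or left intact; tissue was taken 4 weeks later. Prostates were dissociated, and Lin- EpCAM+ cells were sorted as luminal (CD49f low) or basal (CD49f high). Luminal and basal cells of intact and of castrated mice thus gave 4 groups of 3 arrays, 1 per biological replicate, and the intact and castrated animals of a set were described as paired. RNA was amplified before hybridization, and values are MAS5 signal intensity from Affymetrix arrays scaled to a common trimmed mean.

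The sorts carried their markers. Of 7 measured luminal markers 6 were higher in luminal than in basal cells of intact mice, and all 8 basal markers were lower, with a median difference of -5.94 log2 units. Arrays of 1 group correlated across probe sets with Pearson coefficients from 0.842 to 0.959, probe sets not being independent replicates. Intact luminal replicate 3 and castrated basal replicate 3 had the lowest array weights of all 12 arrays, 0.363 and 0.434, and values that rest on them are given without them too. Signals are comparable between arrays of 1 gene, not between genes. Differences are in log2 units with the standard error of the limma fit after ±, which pools the spread of all 4 groups of n = 3, and p-values were adjusted across the 14645 genes in the fit. With 3 arrays a group, precision is limited by their number.

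After castration, 4 of the 10 genes fell in luminal cells (Gstm1, Gstm2, Gsta3 and Gpx3). There 6 of the 10 had an unadjusted p under 0.05, a threshold at which no share of all genes is given. The shares of all genes called below are at the adjusted threshold. In basal cells 3 fell (Gsta3, Gpx1 and Gpx3) and 1 rose (Gstm1). Against this, 5.86% of all genes were called in luminal cells (2.96% lower, 2.90% higher) and 2.62% in basal cells (1.50% lower, 1.12% higher). The median difference over the 10 genes was -0.79 in luminal cells, where it was -0.09 over all genes, and -0.40 in basal cells, where it was -0.11 over all genes. In luminal cells 7 of the 10 genes had all castrated arrays below all intact arrays, against 16.8% of all genes, and 2 had them all above, against 14.9%. Those 2, Mgst1 and Gpx2, did not pass the test. In basal cells 4 genes lay apart below (Gsta3, Gpx1, Gpx3 and Gclc), against 11.1% of all genes, and 2 above (Gstm1 and Mgst1), against 8.71%. Centring each array on its median moved the median of all genes to 0.29 in luminal and 0.23 in basal cells. Under that scaling 1021 genes were called higher and 252 lower in luminal cells, in place of 424 and 434, and 511 higher and 115 lower in basal cells, in place of 164 and 220. Of the members, 2 were then called in luminal cells (Gsta3 and Gpx3) and 3 in basal cells.

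**Figure D1:**
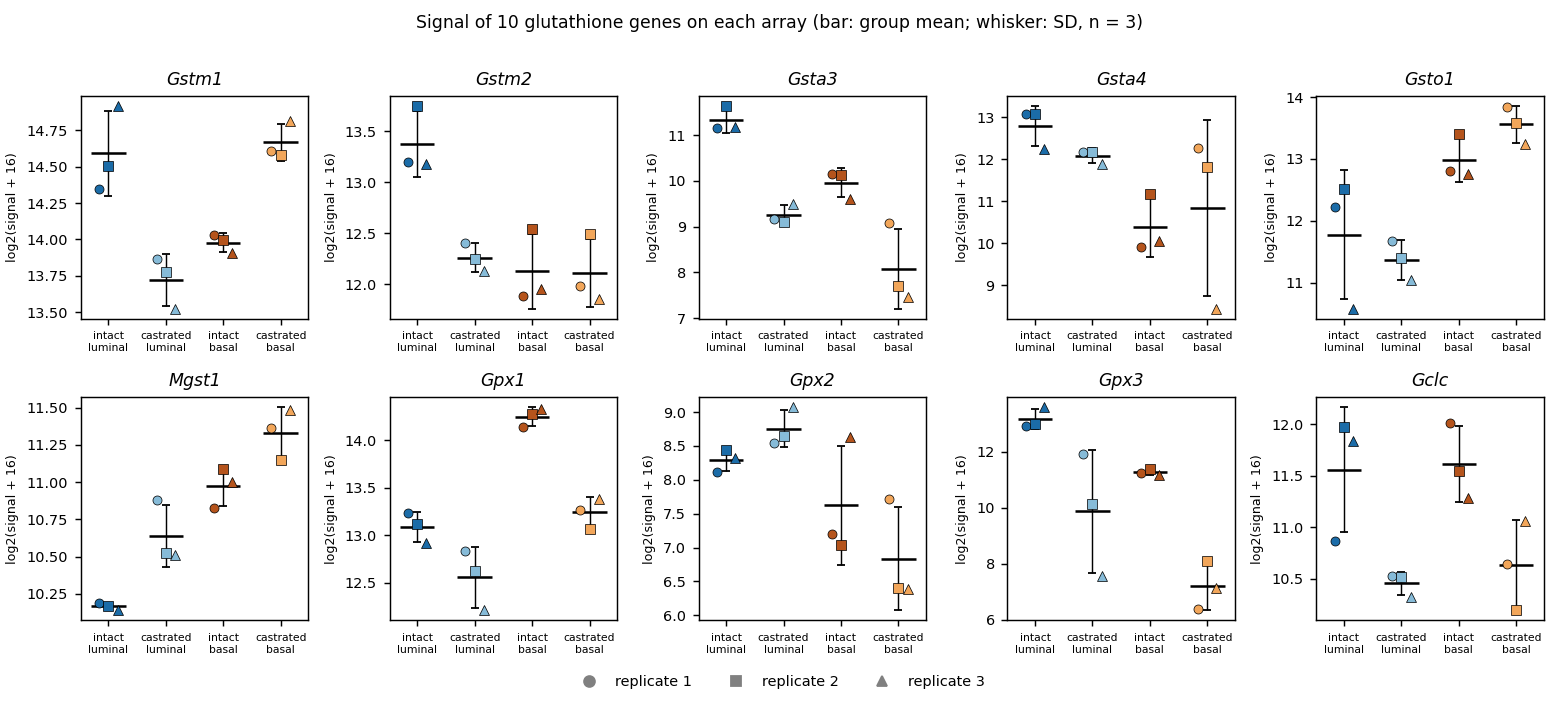
Points show log2(signal + 16) of each gene on each of the 12 arrays, with the replicate given by the marker; bars are group means and whiskers the SD of 3 arrays. Axes differ between genes. Gstm1 is lowest in castrated luminal cells, Gpx3 scatters widely in castrated luminal cells (SD 2.20), and Gsta4 in castrated basal cells (SD 2.09).

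**Figure D2:**
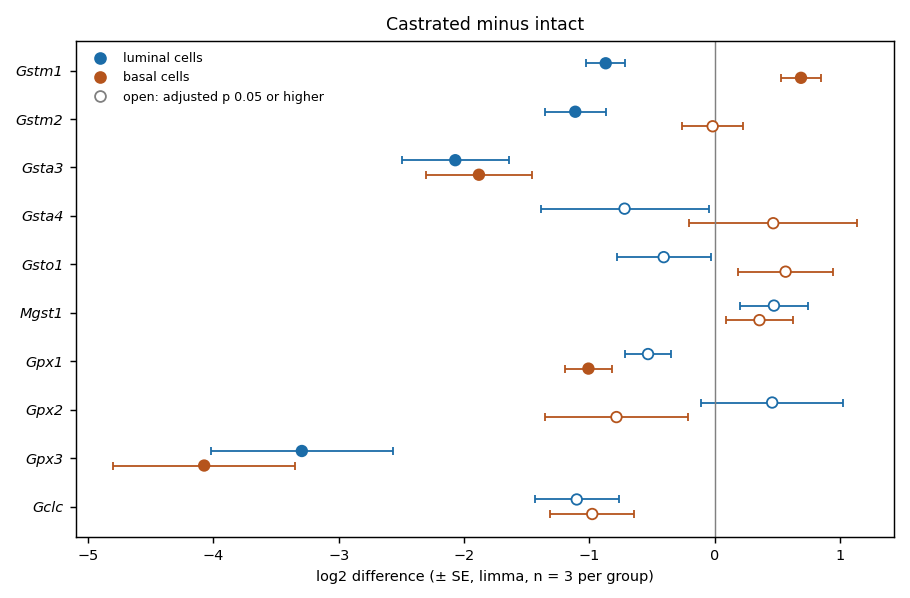
The horizontal axis is the castrated minus intact difference in log2 units with its standard error, for luminal (blue) and basal (orange) cells; filled points passed at an adjusted p of 0.05. Gpx3 and Gsta3 lie to the left in both cell types, whereas Gstm1 lies at -0.87 in luminal and 0.69 in basal cells.

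Gstm1 encodes a mu-class transferase, an abundant cytosolic enzyme of this family. Intact luminal cells gave Gstm1 signals of 20824, 23265 and 30952, and castrated luminal cells gave 14923, 13985 and 11770. All castrated luminal arrays lay below all intact ones. Gstm1 fell there by 0.87 (-0.87 ± 0.16, adjusted p = 0.00268, limma). In basal cells the order was the opposite. Signals were 16731, 16310 and 15319 in intact mice and 24963, 24459 and 28756 in castrated mice, and the groups did not overlap. Gstm1 rose in basal cells (0.69 ± 0.16, adjusted p = 0.0305), and the castration effect differed between the cell types by -1.56 ± 0.22 (adjusted p = 0.00293 for the interaction, against 1.15% of all genes called). Intact luminal cells were above intact basal cells (0.61 ± 0.16, adjusted p = 0.0108) and castrated luminal cells below castrated basal cells (-0.95 ± 0.16, adjusted p = 0.000415). From the highest group down, the order was castrated basal, intact luminal, intact basal and castrated luminal. The arrays of the highest pair overlapped, and the others did not.

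The standing probe set of Gstm1, 1416416_x_at, carries the suffix that the manufacturer gives to sets with probes shared by similar transcripts, so related mu-class genes could contribute to its signal. A probe set of Gstm1 without that suffix, 1448330_at, tested singly over all probe sets, gave -0.78 ± 0.16 in luminal cells (adjusted p = 0.00667), 0.74 ± 0.16 in basal cells (adjusted p = 0.0233) and -1.52 ± 0.22 for the interaction (adjusted p = 0.00369). Of the other Gstm1 probe sets, 1425627_x_at gave -0.61 and 0.61 in luminal and basal cells, and 1425626_at, above the 40th percentile on 5 of 12 arrays, gave 0.28 and -1.03; none of these passed. With the mean of the 4 probe sets no difference of Gstm1 passed, and the interaction was -0.75 (adjusted p = 0.326). Under median centring the luminal fall was -0.49 (adjusted p = 0.114), and the basal rise was 1.03 (adjusted p = 0.00647). The basal rise lost its call without any 1 of the 6 basal arrays, with adjusted p-values from 0.0511 without intact basal replicate 1 to 0.0929 without castrated basal replicate 3; without the others, intact basal replicate 2 and 3 and castrated basal replicate 1 and 2, it was 0.0633, 0.0847, 0.0558 and 0.0640.

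Gstm2, the neighbouring mu-class gene, was measured by 1 probe set without such a suffix. Its signals were 9390, 13754 and 9236 in intact luminal cells and 5418, 4858 and 4462 in castrated luminal cells. Every castrated luminal array was lower, and Gstm2 fell (-1.11 ± 0.24, adjusted p = 0.0109). In basal cells, signals of 3755, 5960 and 3950 before and 4038, 5743 and 3690 after castration overlapped. The basal difference was -0.02, with a 95% interval from -0.53 to 0.50, turning to 0.33 under median centring without passing either way. The intact luminal group stood above the intact basal group (1.25 ± 0.24, adjusted p = 0.00161), and after castration the luminal minus basal difference was 0.15 (95% interval -0.37 to 0.67, adjusted p = 0.724). The castration effects did not pass as different between the cell types (-1.10 ± 0.35, adjusted p = 0.166). The luminal fall lost its call without intact luminal replicate 2 (-0.92, adjusted p = 0.0616), without castrated luminal replicate 3 (-1.05, adjusted p = 0.0632) and under median centring (-0.73, adjusted p = 0.0999).

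The promoters of the neighbouring pair are shown because Gstm1 changed in opposite directions in the cell types while Gstm2 did not pass in basal cells. The windows run from 250 bases before to 50 bases after the RefSeq start on GRCm38.p6, and both genes lie on the minus strand of chromosome 3. Windows were searched on both strands for the core of the antioxidant response element bound by Nrf2, TGACNNNGC, and for AGAACA, a hexamer of the androgen response element; capitals mark matches. Of 32851 windows of this length, 12.4% held the antioxidant core and 19.0% the androgen hexamer.
Gstm1 promoter, upstream of 2 listed starts, chr3:108017924-108018223, minus strand: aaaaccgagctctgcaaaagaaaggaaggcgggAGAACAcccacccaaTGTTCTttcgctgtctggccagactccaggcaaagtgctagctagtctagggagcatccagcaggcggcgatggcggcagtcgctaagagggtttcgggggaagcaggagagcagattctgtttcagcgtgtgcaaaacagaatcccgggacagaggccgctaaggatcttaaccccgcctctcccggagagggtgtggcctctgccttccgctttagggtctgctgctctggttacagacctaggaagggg
Gstm2 promoter, chr3:107986371-107986670, minus strand: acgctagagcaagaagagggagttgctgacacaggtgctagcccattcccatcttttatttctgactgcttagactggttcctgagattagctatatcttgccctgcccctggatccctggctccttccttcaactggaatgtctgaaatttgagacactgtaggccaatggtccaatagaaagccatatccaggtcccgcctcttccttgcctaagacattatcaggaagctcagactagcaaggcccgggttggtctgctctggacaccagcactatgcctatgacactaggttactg
The upstream Gstm1 window held 2 hexamers, 1 on each strand, the first beginning 217 bases before the start, and no antioxidant core. The window of the other listed Gstm1 start, chr3:108017769-108018068, and that of Gstm2 held neither run of letters, so the matches belong to 1 of the 2 Gstm1 starts. A match describes these letters only; binding was not measured.

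Gstm1 and Gstm2 lie in a row of 7 mu-class genes on chromosome 3, in the RefSeq order Gstm5, Gstm7, Gstm6, Gstm3, Gstm2, Gstm1 and Gstm4. Of these 6 were measured, Gstm3 not being analysed here. Gstm5 gave luminal signals of 3124, 3204 and 4090 before and 2042, 1542 and 1040 after castration, without overlap, but did not pass (-1.21 ± 0.37, adjusted p = 0.0671). Gstm7 gave 1824, 2496 and 1242 before and 510, 209 and 447 after, again without overlap and without passing (-2.24 ± 0.70, adjusted p = 0.0735). In intact mice, Gstm7 was 4.74 ± 0.70 log2 units higher in luminal than in basal cells (adjusted p = 0.000141) and Gstm5 2.04 ± 0.37 (adjusted p = 0.000854). After castration these differences were 3.00 ± 0.70 for Gstm7 (adjusted p = 0.00606) and 1.67 ± 0.37 for Gstm5 (adjusted p = 0.00412). Gstm6 and Gstm4 passed in no comparison. Of the 6 measured genes, Gstm1 was the only 1 that passed a test in basal cells, and the only 1 with a called interaction. Basal signals were only 2.01 to 36.1 for Gstm6, 3.74 to 97.4 for Gstm7 and 3.07 to 311 for Gstm4. The standard errors of their basal differences were 0.59, 0.70 and 0.79. For Gstm5 and Gstm2 they were 0.37 and 0.24, against 0.16 for Gstm1. A basal change of the size of that of Gstm1, 0.69, could therefore not have been called for any other measured gene of the row. The calls alone thus do not set Gstm1 apart from them in basal cells. For Gstm2 the 95% interval of the basal difference, -0.53 to 0.50, did not reach 0.69.

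**Figure D3:**
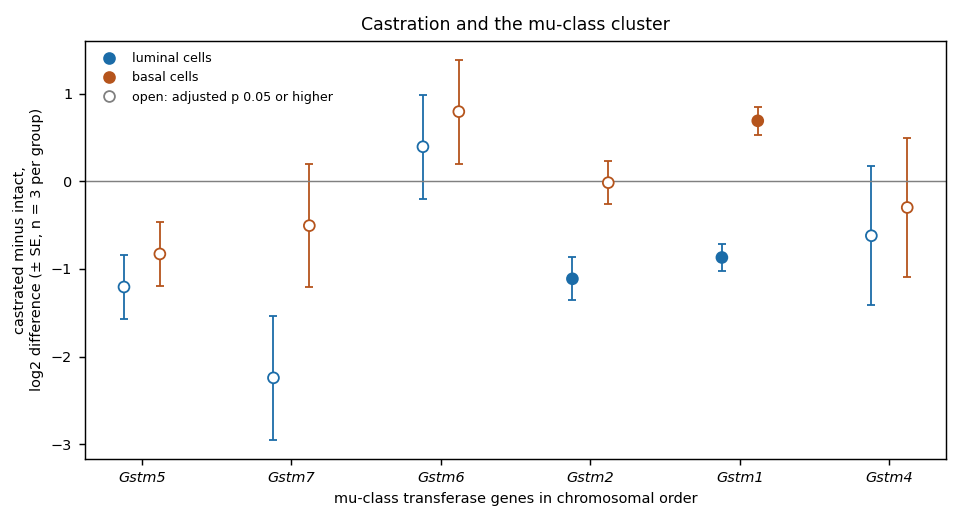
The 6 measured mu-class genes are placed in chromosomal order; the vertical axis is the castrated minus intact log2 difference with its standard error in luminal (blue) and basal (orange) cells, filled where the adjusted p was under 0.05. Luminal points of Gstm5, Gstm7, Gstm2, Gstm1 and Gstm4 lie below 0, and both points of Gstm6 above it, at 0.39 and 0.79, without passing. The basal point of Gstm1 lies above 0 at 0.69.

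Gsta3 encodes an alpha-class transferase, in the mouse known for detoxifying activated aflatoxin. Its signals were 2265, 3181 and 2312 in intact luminal cells and 559, 535 and 707 after castration. In basal cells they were 1119, 1108 and 761 in intact and 524, 192 and 161 in castrated mice. All 4 groups were apart: intact luminal was highest, followed by intact basal, castrated luminal and castrated basal, with no overlap between neighbours. Gsta3 fell in luminal cells (-2.07 ± 0.43, adjusted p = 0.00681) and in basal cells (-1.88 ± 0.43, adjusted p = 0.0292), and the difference between these falls was -0.19, with a 95% interval from -1.46 to 1.08. It was higher in luminal than in basal cells of intact mice (1.37 ± 0.43, adjusted p = 0.0319), and by 1.18 in castrated mice, where it did not pass (adjusted p = 0.0648), though it passed without castrated basal replicate 1 (1.68, adjusted p = 0.00829).

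Both of the weaker calls of Gsta3 rested on single arrays. The basal fall was lost without castrated luminal replicate 1 (adjusted p = 0.0532), intact basal replicate 1 (0.0716) or 2 (0.0737), and castrated basal replicate 2 (0.0856) or 3 (0.0859). The intact luminal against basal difference was lost without intact luminal replicate 1 (adjusted p = 0.0620) or 2 (0.119) and intact basal replicate 1 (0.0529), 2 (0.0525) or 3 (0.0988). A second probe set of Gsta3, 1423437_at, gave -0.67 in luminal and -1.45 in basal cells, and -0.48 for luminal minus basal in intact mice, the opposite sign to the standing probe set; neither castration difference passed. With the mean of both probe sets the intact difference between cell types was 0.44 (adjusted p = 0.442). The promoter of Gsta3 is shown because it held an antioxidant core and the gene fell in both cell types.
Gsta3 promoter, chr1:21240335-21240634, plus strand: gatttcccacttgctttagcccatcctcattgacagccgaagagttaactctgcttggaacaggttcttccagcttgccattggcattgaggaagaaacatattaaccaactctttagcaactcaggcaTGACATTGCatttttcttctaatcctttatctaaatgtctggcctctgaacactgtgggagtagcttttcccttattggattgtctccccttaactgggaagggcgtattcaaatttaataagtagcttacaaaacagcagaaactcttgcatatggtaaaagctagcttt
The match began 121 bases before the start. Of the 10 windows found for 8 of the members, 2 held the antioxidant core (Gsta3 and Mgst1) and 3 the androgen hexamer (Gstm1, Gpx3 and Mgst1). Gstm1 and Mgst1 each had 2 windows, and in each case 1 of them held the hexamer.

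Gsta4, an alpha-class enzyme that clears aldehydes of lipid peroxidation such as hydroxynonenal, had signals of 8622, 8587 and 4863 in intact luminal cells and 939, 2304 and 1043 in intact basal cells. It was higher in luminal cells (2.42 ± 0.67, adjusted p = 0.0167). That call was lost without intact luminal replicate 1 (adjusted p = 0.0587) or 2 (0.0597) and intact basal replicate 1 (0.0666) or 3 (0.0559). Castrated luminal arrays gave 4638, 4627 and 3749, all below the intact ones, without passing (-0.72 ± 0.67, adjusted p = 0.616). Castrated basal arrays gave 4948, 3576 and 332. The last of these was castrated basal replicate 3, an array of low weight. With all arrays the basal difference was 0.47 ± 0.67 (adjusted p = 0.772), and without that array it was 1.67 (adjusted p = 0.0344) and the difference between the castration effects was -2.39 (adjusted p = 0.0283, against -1.19 and 0.660 with it). Without castrated basal replicate 1 or 2 the basal difference was -0.25 or -0.02. The sign of the basal difference of Gsta4 thus changed with either of 2 arrays left out, and its call with the third.

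Gsto1 encodes the omega-class transferase, which has thioltransferase and dehydroascorbate reductase activity. Basal arrays were the higher ones, with 7157, 10830 and 6915 in intact and 14702, 12260 and 9679 in castrated mice. Luminal arrays gave 4789, 5848 and 1522 in intact and 3245, 2694 and 2091 in castrated mice. Gsto1 was lower in luminal than in basal cells of intact mice (-1.21 ± 0.38, adjusted p = 0.0311) and of castrated mice (-2.19 ± 0.38, adjusted p = 0.000542). The castration difference was -0.41 ± 0.38 in luminal cells (95% interval -1.20 to 0.39) and 0.57 ± 0.38 in basal cells (-0.23 to 1.36), and neither passed. Without intact luminal replicate 3, which gave the 1522, the intact difference between cell types was -0.62 (adjusted p = 0.116), the luminal castration difference was -1.002 (adjusted p = 0.0415), and the interaction was -1.57 (adjusted p = 0.0398, against -0.97 and 0.475 with it). The intact difference between cell types also lost its call without intact basal replicate 1 (adjusted p = 0.0535) or 2 (0.120), with quantile normalization (0.0505) and with array weights (0.0786). The standing probe set of Gsto1 has the suffix for shared probes; 1416531_at, without it, gave -1.45 (adjusted p = 0.00471) and -2.54 (adjusted p = 3.56e-05) for luminal minus basal in intact and castrated mice.

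Mgst1, a transferase bound to the membranes of the endoplasmic reticulum and mitochondria, gave 1151, 1136 and 1112 in intact luminal, 1868, 1459 and 1444 in castrated luminal, 1801, 2162 and 2035 in intact basal and 2618, 2250 and 2845 in castrated basal cells. In each cell type every castrated array was above every intact array, a pattern seen in 14.9% of all genes in luminal and 8.71% in basal cells. The differences were 0.47 ± 0.27 (adjusted p = 0.359) and 0.36 ± 0.27 (adjusted p = 0.528) and did not pass. Mgst1 was lower in luminal than in basal cells of intact mice (-0.81 ± 0.27, adjusted p = 0.0433), and that call was kept without castrated basal replicate 2 (adjusted p = 0.0477) or 3 (0.0375) and lost without any 1 of the other 10 arrays (adjusted p from 0.0512 without castrated basal replicate 1 to 0.109 without intact basal replicate 2). With the replicate number as a block it had an adjusted p of 0.0604. In castrated mice the difference was -0.69 ± 0.27 (adjusted p = 0.0851).

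Gpx1, the cytosolic selenium-dependent peroxidase, gave 17994, 19844 and 20545 in intact basal cells and 9852, 8577 and 10666 in castrated basal cells. The groups were far apart, and Gpx1 fell by 1.01 log2 units (-1.01 ± 0.18, adjusted p = 0.00941), a 2.01-fold difference; under median centring the value was -0.66 (adjusted p = 0.0994). Luminal arrays gave 9585, 8855 and 7737 in intact and 7295, 6305 and 4716 in castrated mice, again without overlap, but the difference did not pass (-0.53 ± 0.18, adjusted p = 0.108). The effects in the cell types did not pass as different (0.48 ± 0.26, adjusted p = 0.475). Gpx1 was lower in luminal than in basal cells of intact mice (-1.16 ± 0.18, adjusted p = 0.000278), a call that held without each of the 12 arrays. In castrated mice it was lower in luminal cells too (-0.68 ± 0.18, adjusted p = 0.0151), losing that call without castrated luminal replicate 3 (-0.51, adjusted p = 0.0987), without castrated basal replicate 3 (adjusted p = 0.0532), under median centring (adjusted p = 0.0695) and with quantile normalization (0.0776).

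Gpx2, the peroxidase best known from the epithelium of the gut, had signals of 262, 332 and 306 in intact luminal cells and 358, 386 and 521 in castrated luminal cells. Basal arrays gave 131, 116 and 379 in intact and 195, 68.5 and 68 in castrated mice. It was the only member with castrated luminal cells as its highest group, though the castration differences of 0.46 ± 0.57 in luminal and -0.78 ± 0.57 in basal cells did not pass (adjusted p = 0.720 and 0.511). Castrated luminal cells stood above castrated basal cells (1.92 ± 0.57, adjusted p = 0.0256), which was lost without castrated luminal replicate 1 (adjusted p = 0.0674), 2 (0.0727) or 3 (0.107) and castrated basal replicate 2 (0.0793) or 3 (0.0748), and with quantile normalization (0.0680). In intact mice the difference was 0.68 (adjusted p = 0.460), the intact basal array of 379 lying above all intact luminal arrays.

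Gpx3, the secreted peroxidase of extracellular fluids, had the widest range of group means among the members, 5.96 log2 units. Intact luminal arrays gave 7770, 8175 and 12278 and castrated luminal arrays 3903, 1105 and 173. Intact basal arrays gave 2428, 2691 and 2313 and castrated basal arrays 67.5, 260 and 124. Castrated arrays lay below intact arrays in each cell type, and the castrated luminal arrays had the widest spread of the 4 groups, with an SD of 2.20 log2 units. Gpx3 fell by 3.29 in luminal cells (-3.29 ± 0.73, adjusted p = 0.0109) and by 4.07 in basal cells (-4.07 ± 0.73, adjusted p = 0.00741). The difference between the falls was 0.78, with a 95% interval from -1.39 to 2.95. The luminal value was -4.32 without castrated luminal replicate 1 and -2.14 without castrated luminal replicate 3, passing both times. Without intact luminal replicate 3 it was -3.09 (adjusted p = 0.0523), and without the whole of set 3, an alternative chosen after seeing the data, it was -1.93 (adjusted p = 0.103). The basal fall kept its call without each of the 12 arrays and was lost with array weights (-4.09, adjusted p = 0.0635).

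Gpx3 was higher in luminal than in basal cells of castrated mice (2.67 ± 0.73, adjusted p = 0.0156), although the castrated luminal array of 173 lay below the castrated basal array of 260. That call was lost without castrated luminal replicate 1 (1.64, adjusted p = 0.104) or 2 (2.54, adjusted p = 0.0605) and castrated basal replicate 1 (2.26, adjusted p = 0.0694). In intact mice the groups did not overlap, but the difference of 1.89 ± 0.73 did not pass (adjusted p = 0.0794). It passed without castrated luminal replicate 1 (adjusted p = 0.0269) or 3 (0.0108), which are not in that comparison but enter the pooled spread. The Gpx3 promoter is shown because this gene moved most.
Gpx3 promoter, chr11:54902604-54902903, plus strand: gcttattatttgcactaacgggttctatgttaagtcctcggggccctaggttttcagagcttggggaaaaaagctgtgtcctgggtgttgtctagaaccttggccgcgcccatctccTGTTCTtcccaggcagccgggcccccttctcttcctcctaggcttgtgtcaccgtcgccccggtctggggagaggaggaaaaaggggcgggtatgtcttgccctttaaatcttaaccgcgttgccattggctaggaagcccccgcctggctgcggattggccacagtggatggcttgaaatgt
It held 1 androgen hexamer, on the opposite strand and beginning 133 bases before the start, and no antioxidant core.

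Since these are bulk samples of sorted cells, fewer cells of a type and less RNA per cell cannot be told apart. Markers of other cells moved beside Gpx3. The summed signal of 9 fibroblast markers was 7851 to 14242 in intact luminal, 754 to 978 in castrated luminal, 40259 to 51343 in intact basal and 23932 to 29467 in castrated basal cells. Of these 9 markers 6 fell in luminal and 4 in basal cells after castration. Col1a1, Pdgfra and Sparc were below the 40th percentile on all castrated luminal arrays, and Lum on all castrated basal arrays. Dcn gave 22817, 20728 and 19695 and Sparc 16614, 12407 and 15355 in intact basal cells, so these 2 genes made up most of the sum there. In castrated basal cells Dcn gave 21299, 19295 and 25683 (0.06 ± 0.25, adjusted p = 0.931), most of the sum. Sparc fell there to 1538, 390 and 1396 (-3.93 ± 0.54, adjusted p = 0.000885). The castrated basal sum thus mainly shows Dcn and understates the falls of the 4 called markers. Of the 9 markers 3 were called lower in luminal than in basal cells of intact mice and 4 in castrated mice. Of the luminal secretory genes, Pbsn, the androgen-dependent probasin, gave 9468, 4705 and 12419 on intact basal arrays and 134, 19.1 and 23.2 on castrated basal arrays. On luminal arrays Pbsn gave 56237 to 70160 in intact and 4690 to 5953 in castrated mice. Pbsn does not stand for the 7 measured luminal markers. Of these, 3 were called lower and 1 higher in basal cells after castration, with a median of 0.33. The 1 called higher was Krt19 (1.19 ± 0.18, adjusted p = 0.00220). In luminal cells 3 were called lower and 0 higher, with a median of -0.51. Castration lowered all 6 measured seminal vesicle genes in the luminal sort and 3 of the 6 in the basal sort. Fabp4, the adipocyte marker measured, was at 394 to 2686 in intact basal and 7.01 to 132 in castrated basal cells, where it fell, and at 11.8 to 283 in intact luminal and 1.31 to 18.9 in castrated luminal cells. Endothelial markers summed to 244 to 979 in intact luminal, 39.2 to 205 in castrated luminal, 544 to 981 in intact basal and 268 to 315 in castrated basal cells. The sum of 7 leukocyte markers was 983 to 2469 in intact and 1630 to 2794 in castrated basal cells, and 374 to 1316 and 160 to 403 in luminal cells. Of these 7, Lyz2 rose in basal cells (2.40 ± 0.59, adjusted p = 0.0398), from 142, 132 and 39.3 to 502, 492 and 703. Alas2, the erythroid marker measured, rose in luminal cells (3.57 ± 0.58, adjusted p = 0.00118), from 20.2, 13.5 and 8.15 to 460, 309 and 261. The sum of 4 smooth muscle markers was 389 to 1943 in intact luminal, 167 to 351 in castrated luminal, 1021 to 2115 in intact basal and 778 to 1525 in castrated basal cells. The part of these cells in the differences of Gpx3, Gsta3 and the other members was not tested.

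**Figure D4:**
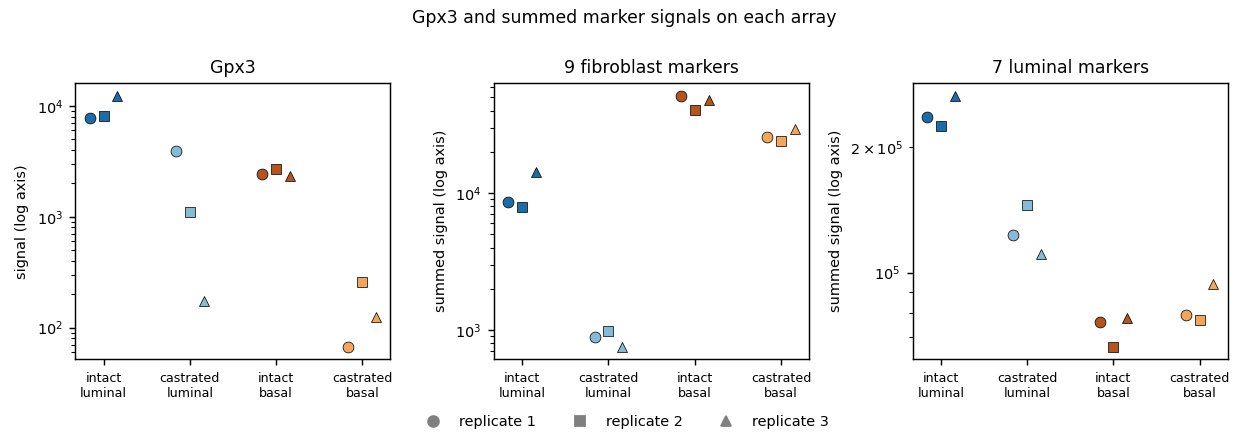
Each point is 1 array; the vertical axes are logarithmic and show the signal of Gpx3 (left), the summed signal of 9 fibroblast markers (middle) and of 7 luminal markers (right). The fibroblast sum lies at 7851 to 14242 in intact and 754 to 978 in castrated luminal cells. In basal cells it lies at 40259 to 51343 in intact and 23932 to 29467 in castrated mice. Most of the castrated basal sum is Dcn, which did not pass in basal cells. Gpx3 is lower after castration in each cell type. The luminal sum lies at 224388 to 265008 in intact and 110604 to 144837 in castrated luminal cells. Cd24a, Pbsn and Tgm4 were called lower there after castration, and Krt8, Krt18, Krt19 and Hoxb13 did not pass.

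Gclc, which limits the rate of glutathione synthesis, gave 1847, 3997 and 3647 in intact luminal and 1460, 1449 and 1269 in castrated luminal cells. In basal cells it gave 4104, 2982 and 2472 before and 1588, 1157 and 2127 after castration. Castrated arrays were below intact arrays in each cell type, but the differences of -1.10 ± 0.34 (adjusted p = 0.0654) and -0.98 ± 0.34 (adjusted p = 0.131) did not pass. The luminal one passed without intact luminal replicate 1 (-1.45, adjusted p = 0.0183), without castrated basal replicate 3 (-1.10, adjusted p = 0.0495), and with quantile normalization (-1.23, adjusted p = 0.0379). A second probe set, 1455959_s_at, gave -1.07 and -0.90 in luminal and basal cells. Luminal and basal cells did not pass as different, at -0.06 in intact mice (95% interval -0.76 to 0.65) and -0.18 in castrated mice (-0.89 to 0.53). Its partner Gclm, the modifier subunit of the ligase, named here after its values were seen, fell in luminal cells (-1.16 ± 0.29, adjusted p = 0.0241).

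Between the cell types, 7 of the 10 genes passed in intact mice. Gstm1, Gstm2, Gsta3 and Gsta4 were higher in luminal cells and Gsto1, Mgst1 and Gpx1 in basal cells, where 19.5% of all genes were called (11.0% higher and 8.45% lower in luminal cells). In castrated mice 5 passed, Gpx2 and Gpx3 being higher in luminal cells and Gstm1, Gsto1 and Gpx1 in basal cells, against 18.4% of all genes (11.2% higher and 7.22% lower). Gsto1 and Gpx1 were called lower in luminal cells in both, and Gstm1 was the only member called in opposite directions. With intact luminal replicate 3 and castrated basal replicate 3 left out, 6 members passed in intact and 4 in castrated mice. That fit called 3084 and 2781 of the 14645 genes, in place of 2852 and 2701. In intact mice 5 genes had all luminal arrays above all basal arrays and 3 had them all below, against 18.0% and 14.0% of all genes, and in castrated mice 2 and 4 did, against 23.6% and 17.5%. These comparisons use the same arrays as the castration comparisons and are not independent of them.

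**Figure D5:**
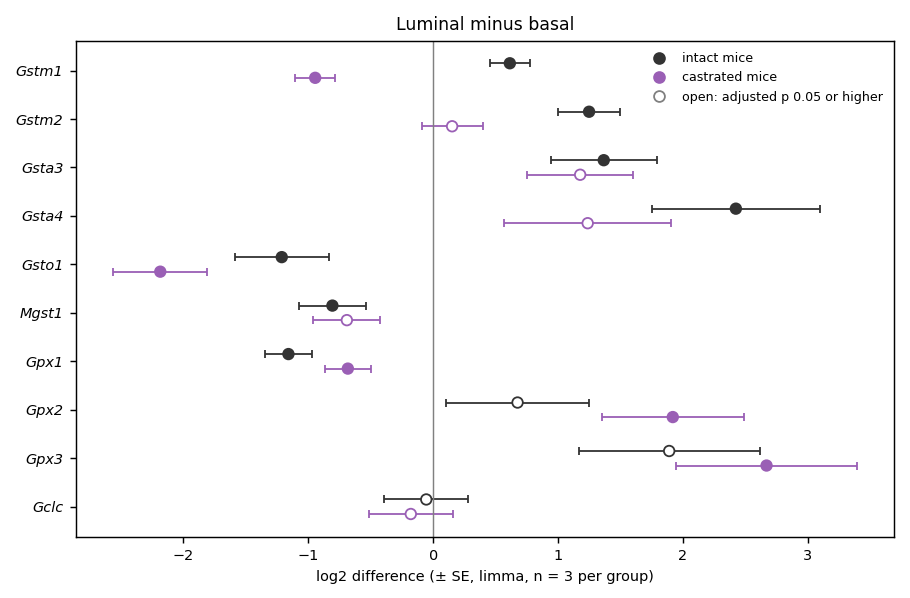
The horizontal axis is the luminal minus basal log2 difference with its standard error in intact (black) and castrated (purple) mice; filled points passed at an adjusted p of 0.05. Gstm1 crosses from 0.61 to -0.95, Gsto1 and Gpx1 stay to the left of 0, and Gclc lies near 0 in both.

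Beyond the 10 genes, 94 of 114 other genes of glutathione and antioxidant metabolism were measured. In luminal cells 6 of the 94 rose and 6 fell after castration (12.8% called, against 5.86% of all genes), with a median of -0.05. The leading ones were Anpep, an aminopeptidase that trims glutathione breakdown products (2.80 ± 0.49, adjusted p = 0.00216), Bach1, a repressor of Nrf2 targets (1.36 ± 0.30, adjusted p = 0.0114), Nfe2l2, which encodes Nrf2 (1.02 ± 0.23, adjusted p = 0.0117), and Sod1, the cytosolic superoxide dismutase (-0.61 ± 0.14, adjusted p = 0.0115). Anpep went from 1629, 1217 and 245 to 5720, 5945 and 5216, and Nfe2l2 from 2081, 1754 and 1256 to 3284, 3499 and 3367. The 245 of Anpep came from intact luminal replicate 3, an array of low weight, and its rise without that array is not given. The other 14 measured cytosolic transferases had a median of -0.40, and 0 of them were called. In basal cells 3 of the 94 rose and 2 fell (5.32%, against 2.62%), with a median of 0.17. Chac1, which degrades glutathione (2.32 ± 0.31, adjusted p = 0.000711), the glutaredoxin Glrx (2.19 ± 0.47, adjusted p = 0.0220) and the neutral amino acid transporter Slc1a4 (1.35 ± 0.31, adjusted p = 0.0316) rose, and the glycine methyltransferase Gnmt fell (-3.51 ± 0.62, adjusted p = 0.00672). Chac1 went from 773, 832 and 1192 to 3206, 4988 and 6201, without overlap.

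Of the same 94 genes, 23 were higher and 6 lower in luminal than in basal cells of intact mice (30.9%, against 19.5%), and 18 were higher and 7 lower in castrated mice (26.6%, against 18.4%). Of the 14 other cytosolic transferases 5 were higher and 1 lower in luminal cells of intact mice, and 3 were higher in castrated mice, against 11.0% and 11.2% of all genes called higher. Nfe2l2 was lower in luminal cells of intact mice (-1.99 ± 0.23, adjusted p = 1.09e-05), as was the thioredoxin reductase Txnrd1 (-1.47 ± 0.21, adjusted p = 0.000112). The carbonyl reductase Cbr1 was higher (3.30 ± 0.42, adjusted p = 3.23e-05). In castrated mice the mitochondrial peroxiredoxin Prdx3 (3.41 ± 0.44, adjusted p = 3.79e-05), the theta-class transferase Gstt3 (3.67 ± 0.54, adjusted p = 0.000133) and the NADPH-producing Idh1 (3.33 ± 0.53, adjusted p = 0.000271) were higher in luminal cells, and the small Maf protein Maff was lower (-1.13 ± 0.15, adjusted p = 5.92e-05).

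For the 3 members with the widest range of group means, the genes of most similar pattern were found by the root mean square difference of log2 values over the 12 arrays, each gene centred on its mean. Closest to Gpx3 were Gnmt (1.02 log2 units), Dnase1l2 (1.06) and Nqo2 (1.08), where the median over all genes was 2.45. Gnmt went from 1251, 853 and 1274 to 229, 125 and 118 in luminal cells and from 331, 683 and 957 to 7.28, 108 and 39.5 in basal cells. Closest to Gsta3 were Coro2a (0.35), Crip1 (0.39) and Myh7 (0.50), against a median of 1.41, and closest to Gsta4 were Tmc7 (0.43), Ung (0.45) and Sec24d (0.48), against 1.51. The patterns share arrays and group means, and likeness of this kind describes these 12 arrays only.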

How the data were processed

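RNA of sorted prostate epithelial cells was hybridized to 12 Affymetrix arrays, 3 per group. The deposited values are signal intensity on a linear scale, computed by the authors with MAS5 per the submitters' processing notes (version not given in the sources used here). In every array the mean trimmed by 2% was 500.0, and array medians ran from 57.7 to 99.9, so a difference depends on this scaling. The ratio of 3' to 5' control signal ran from 4.18 to 8.70 over the arrays for Gapdh and from 0.78 to 1.11 for Actb. Its part in differences between probe sets of a gene was not tested.

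Of 45101 rows, 64 were controls, 34945 had 1 gene symbol in the platform annotation, 932 several and 9160 none; only the first kind was named. Intensities were analysed as log2(signal + 16), with fold changes on that scale, which understates changes of low genes. Each gene was represented by its probe set of highest mean. The 14645 of 18193 genes above the array's 40th percentile on at least 3 arrays were fitted with limma 3.58.1 (R 4.3.3), with a mean per group, 8 residual degrees of freedom and an intensity trend. The 95% intervals come from that fit. Calls used a Benjamini-Hochberg adjusted p under 0.05. The script was checked on simulated data. Lists were handled in Python 3.11.15 (pandas 2.3.3, with numpy 2.4.6) and figures drawn by matplotlib 3.10.9. Promoter windows and gene order are from RefSeq, GRCm38.p6.

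Replicate numbers were taken as the sets the design describes, whose intact and castrated animals were paired. Over 18 pairs of same-numbered arrays the correlation of deviations from the group mean ran from -0.0072 to 0.026, and the fit without a block is the main one.

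The members and lists were chosen with earlier results of these data known. Genes outside the 10 were named by rule: the 4 of the glutathione list with the lowest adjusted p in a comparison, and the 3 closest in pattern to each of the 3 members of widest range. The other mu-class genes beside Gstm1 and Gstm2, and Gclm, fall outside that rule and were chosen after values were seen. Normalization, offset, filter, probe choice, array weights, the replicate block and left-out arrays were varied.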

Additional observations from a re-analysis of the deposited data

Results flagged for a closer look

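The castration effect on Gstm1 differed between luminal and basal cells by the test of the difference itself, at -1.56 log2 units (adjusted p = 0.00293, limma). That call was lost without the intensity trend (adjusted p = 0.139) and with the mean of the probe sets of Gstm1 (-0.75, adjusted p = 0.326). All 3 castrated luminal arrays lay below the intact luminal ones, as in 16.8% of all genes. All 3 castrated basal arrays lay above the intact basal ones, as in 8.71% of all genes.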

How the results depend on the processing

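Without an intensity trend, 1 member was called for castration in luminal cells and 1 in basal cells (4 and 4 with it), 3 and 3 between cell types in intact and castrated mice (7 and 5 with it), and 0 for the interaction (1 with it), where 27 of all genes were called. Median centring left 2 in luminal cells, array weights 1 in basal cells and quantile normalization 3 in castrated mice. The mean of probe sets left 0 for the interaction. With 1 probe set per gene, 2 members had an unadjusted p under 0.05 for the interaction. No share of all genes at that unadjusted threshold is given. These alternatives were chosen after seeing the data: without both arrays of lowest weight the interaction was called for 3 members, and without set 3 the count in castrated mice was 3. Leaving out 1 array gave 3 to 5 members in luminal and 2 to 4 in basal cells, 3 to 7 in intact and 3 to 5 in castrated mice, and 1 to 2 for the interaction.

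Over all genes, calls in luminal cells were 555 without the trend, 1945 with array weights, 1372 over single probe sets and 520 without set 3, against 858. In basal cells they were 626 with median centring, 155 without the trend, 202 with array weights and 120 with only the groups compared, against 384. For single probe sets, 4672 and 4315 were called between cell types in intact and castrated mice, against 2852 and 2701 genes. Without the trend 2373 and 2157 genes were called there, and without both arrays of lowest weight 3084 and 2781. In castrated mice 2380 genes were called with quantile normalization and 2557 without set 3. The interaction had 83 without set 3 and 167 without both arrays of lowest weight, against 168. Leaving out 1 array gave 401 to 984 in luminal cells (castrated luminal replicate 3, castrated basal replicate 3). In basal cells it gave 175 to 623 (castrated basal replicate 2, intact luminal replicate 3). Between cell types it gave 2160 to 3138 in intact mice (intact luminal replicate 2, castrated basal replicate 3). In castrated mice the range was 1720 to 3109 (castrated luminal replicate 1, intact luminal replicate 3). For the interaction it was 65 to 163 (castrated luminal replicate 3, intact luminal replicate 3).

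Differences that changed sign were uncalled. Gstm2 in basal cells was 0.33 with median centring, 0.020 with array weights, 0.11 without both arrays of lowest weight and 0.026 without set 3, and ran from -0.21 to 0.19 over left-out arrays; Gsta4 there ran from -0.25 to 1.67. Gclc between cell types ran from -0.26 to 0.29 in intact mice and from -0.40 to 0.04 in castrated mice, where it was 0.035 without both arrays of lowest weight and 0.10 without set 3. For the interaction, Gclc was 0.10 with array weights, 0.23 without both arrays of lowest weight, 0.46 without set 3 and -0.47 to 0.091 over left-out arrays. Gsta3 was 0.30 with the mean of probe sets and -0.50 to 0.31 over left-out arrays, Mgst1 ran from -0.0044 to 0.19 and Gpx3 from -0.25 to 1.94. The cause was not tested. As a fixed block, the replicate number changed no call of a member but that of Mgst1 in intact mice (-0.81, adjusted p = 0.0604). A random block joining the luminal and basal arrays of the same set and surgery changed none. That random block does not test the pairing of intact with castrated animals.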
